A study of Mus musculus with 16 samples.

Results

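The core circadian clock genes of the liver were described in the deposited expression table. The members were the genes with the symbol Clock, Npas2, Per1, Per2, Per3, Cry1, Nr1d1, Nr1d2, Dbp or Ciart, which gave 10 genes of 17003. The table holds liver RNA from 16 male mice of 8 weeks on normal chow, which the labels call fed, with 1 library per mouse. Of these, 8 were Fgl1 WT mice, which carry floxed Fgl1 alleles without CRE, and 8 were Fgl1 LKO littermates, in which hepatocytes express CRE from the albumin promoter. The labels state no time of death. Values are FPKM, fragments scaled by the authors to transcript length and library size, so that levels can be compared between genes.

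The circadian clock is a loop of transcription factors that runs in most cells. CLOCK, or its relative NPAS2, pairs with BMAL1 and activates the genes of its own repressors, the PER and CRY proteins, and of the nuclear receptors REV-ERB alpha and beta, which repress Bmal1. In the liver this loop and the feeding rhythm drive daily changes in the RNA of metabolic genes, so that the level of a clock gene in a single liver depends on the hour at which it was taken.

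The targeted gene separated the groups. Fgl1 lay between 157.8 and 1331 FPKM in Fgl1 WT mice and between 13.2 and 90.0 FPKM in Fgl1 LKO mice. The hepatocyte markers Alb, Apoa1, Ttr and Cyp2e1 summed to at least 46203 FPKM in every mouse. Summed FPKM over all genes ranged from 673153 to 786188 between mice. The relative depth of the libraries, estimated from genes of low FPKM, ranged from 0.952 to 1.02. It rests on 36 genes, as few as 3 of them above 0 in a mouse, and only on values within a factor of 1.5 of each other, which makes it blind to wider gaps.

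All 10 members reached a mean of 0.1 FPKM, the filter that left 12770 genes for testing. Their levels spanned a wide range. Nr1d1 was the highest, with a mean of 25.3 FPKM over the 16 mice, followed by Nr1d2 with 8.77 FPKM and Clock with 6.56 FPKM. Ciart and Per3 were the lowest, with means of 0.374 and 0.416 FPKM.

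Clock and Npas2 encode the activators. Clock lay between 5.30 and 7.82 FPKM in Fgl1 WT mice (median 6.16) and between 5.42 and 8.41 FPKM in Fgl1 LKO mice (median 6.35). It was among the steadiest members, the highest mouse having 1.59 times the FPKM of the lowest. Npas2 lay between 1.14 and 4.33 FPKM in Fgl1 WT mice (median 2.17) and between 0.98 and 3.43 FPKM in Fgl1 LKO mice (median 1.61). The highest value of each genotype stood above the rest, and the genotypes overlapped over most of their range. Arntl, the gene of BMAL1, averaged 11.5 ± 1.85 FPKM in Fgl1 WT and 11.5 ± 1.60 FPKM in Fgl1 LKO livers (SD, n = 8 each).

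Per1, Per2, Per3 and Cry1 encode repressors of these activators. Per1 lay between 1.24 and 7.10 FPKM in Fgl1 WT mice (median 4.35) and between 1.36 and 6.62 FPKM in Fgl1 LKO mice (median 4.00). Fgl1 WT replicates 6, 7 and 8 and Fgl1 LKO replicate 7 were lowest, from 1.24 to 1.72 FPKM, and every other mouse had at least 3.92 FPKM. Cry1 lay between 3.41 and 8.70 FPKM in Fgl1 WT mice (median 5.87) and between 1.77 and 6.82 FPKM in Fgl1 LKO mice (median 4.43). Per2 lay between 1.07 and 2.59 FPKM in Fgl1 WT mice (median 1.93) and between 1.10 and 3.25 FPKM in Fgl1 LKO mice (median 1.94). Per3 stayed below 1 FPKM in every mouse, between 0.21 and 0.83. Each of these genes overlapped between the genotypes.

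Nr1d1 and Nr1d2 encode REV-ERB alpha and REV-ERB beta. Nr1d1 (NCBI Gene 217166) is annotated by GENCODE at chr11:98658752-98666188 on the minus strand of GRCm39. It was 19.1, 18.2, 12.5, 14.5, 8.95, 28.5, 40.9 and 44.2 FPKM in Fgl1 WT replicates 1 to 8. The Fgl1 LKO mice, in the same order of replicates, had 12.0, 27.4, 63.5, 11.1, 12.2, 25.9, 41.6 and 25.0 FPKM. High and low mice occurred in both genotypes, and the highest mouse had 7.10 times the FPKM of the lowest. Nr1d2 lay between 4.77 and 14.9 FPKM in Fgl1 WT mice (median 8.49) and between 5.31 and 12.2 FPKM in Fgl1 LKO mice (median 8.43).

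Dbp and Ciart are targets of the activators. Dbp encodes a PAR bZIP transcription factor that binds D-box elements, and Ciart encodes a further repressor of CLOCK and BMAL1. Dbp (NCBI Gene 13170) is at chr7:45354512-45359627 on the plus strand. It was 0.88, 0.86, 0.72, 0.37, 0.42, 1.70, 2.43 and 7.44 FPKM in Fgl1 WT replicates 1 to 8. The Fgl1 LKO mice, in the same order of replicates, had 0.37, 0.58, 4.84, 0.50, 0.48, 1.18, 2.95 and 1.01 FPKM. Most mice of both genotypes lay near or below 1 FPKM, and a few of each stood well above, so that the highest mouse had 20.1 times the FPKM of the lowest. Ciart was listed at 0 in 1 mouse, Fgl1 WT replicate 4, and reached 1.12 FPKM in Fgl1 LKO replicate 6.

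**Figure D1:**
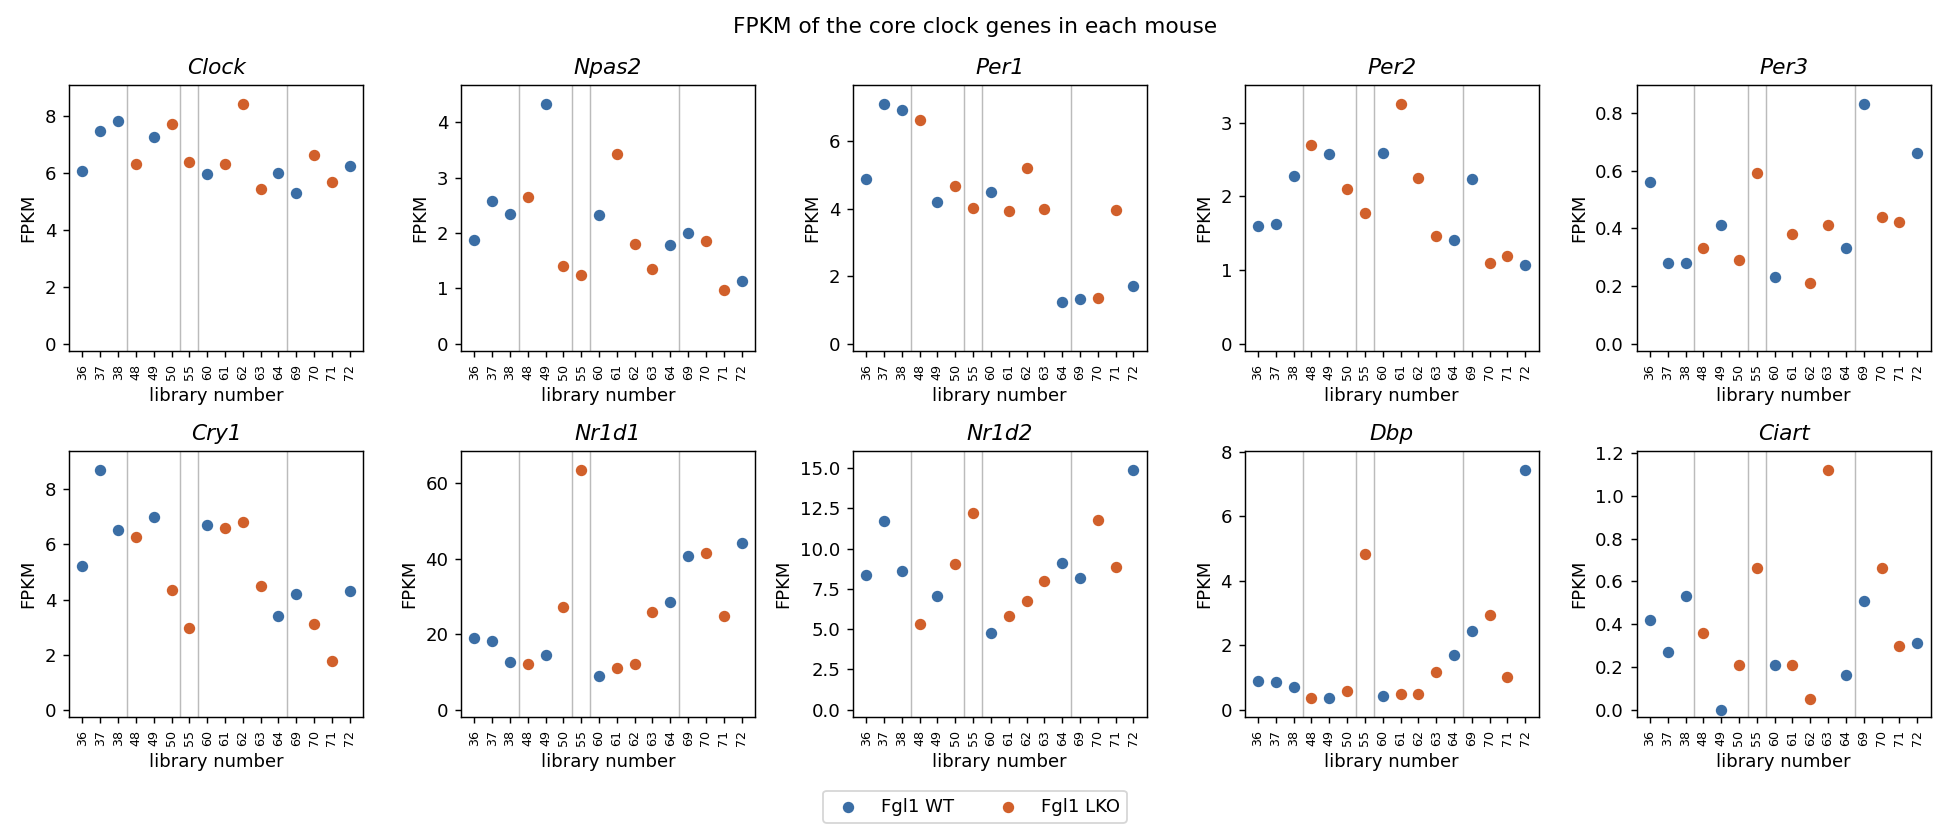
FPKM of each core clock gene (vertical axes, linear, starting near 0) in the 16 mice, ordered along the horizontal axis by library number. Blue points are Fgl1 WT mice and orange points Fgl1 LKO mice, and grey lines separate runs of consecutive library numbers. Dbp is below 1 FPKM in all mice up to library 50 and above 1 FPKM in all 4 mice from library 69 on.

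The genotypes were compared with limma on log2(FPKM + 1), a scale that understates changes of low genes, with Benjamini-Hochberg adjustment over all 12770 genes. Among the members, 0 of 10 passed an adjusted p of 0.05, and over all genes 0 passed (0.0%). The targeted gene Fgl1 did not pass either, with a log2 difference of -3.11 (Fgl1 LKO minus Fgl1 WT, adjusted p = 0.0725 from limma). At an unadjusted p under 0.05, limma called 0 of 10 members and 895 of 12770 genes (7.01%). None of the 10 members separated the genotypes without overlap, against 2 of all genes (0.0157%), which were Fgl1 and Fitm2, the latter named after its values were seen.

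On this scale the member difference farthest from 0 was that of Cry1, with a log2 difference of -0.32 (Fgl1 LKO minus Fgl1 WT, SE 0.21, adjusted p = 0.735 from limma), and 5 of the 8 Fgl1 LKO mice lay below the Fgl1 WT median. It was -0.19 without Fgl1 LKO replicate 8. With run as a term, Per1 lay farthest from 0 instead, at 0.49 (unadjusted p = 0.0431, adjusted p = 0.602 from limma; 0.602 to 0.988 over the settings tried) beside -0.21 for Cry1, without libraries 36 to 38 Per1 was at 0.59, and with a pseudocount of 0.01 Ciart was at 0.67. With a mouse left out, Per1 lay farthest without Fgl1 WT replicate 2 (0.29) or Fgl1 LKO replicate 7 (0.32) and Dbp without Fgl1 LKO replicate 3 (-0.32). The difference was -0.22 for Npas2 (SE 0.17, adjusted p = 0.784 from limma), with 6 of 8 Fgl1 LKO mice below the Fgl1 WT median, and -0.11 without Fgl1 WT replicate 4. The differences of the most variable members were loosely bounded. The 95% interval of the log2 difference ran from -0.61 to 0.94 for Nr1d1 and from -0.88 to 0.65 for Dbp. It was narrower for the steadier genes, from -0.17 to 0.20 for Clock and from -0.30 to 0.33 for Per2. Of the 10 members, 5 had a higher estimate in Fgl1 LKO mice, beside 7126 of the 12770 genes tested. The median log2 difference of the members was -0.02, beside 0.01 over all genes tested. The signs of Clock, Per2, Nr1d1, Nr1d2 and Dbp were not stable between the settings tried, quantile normalization reversing Clock and Per2.

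**Figure D2:**
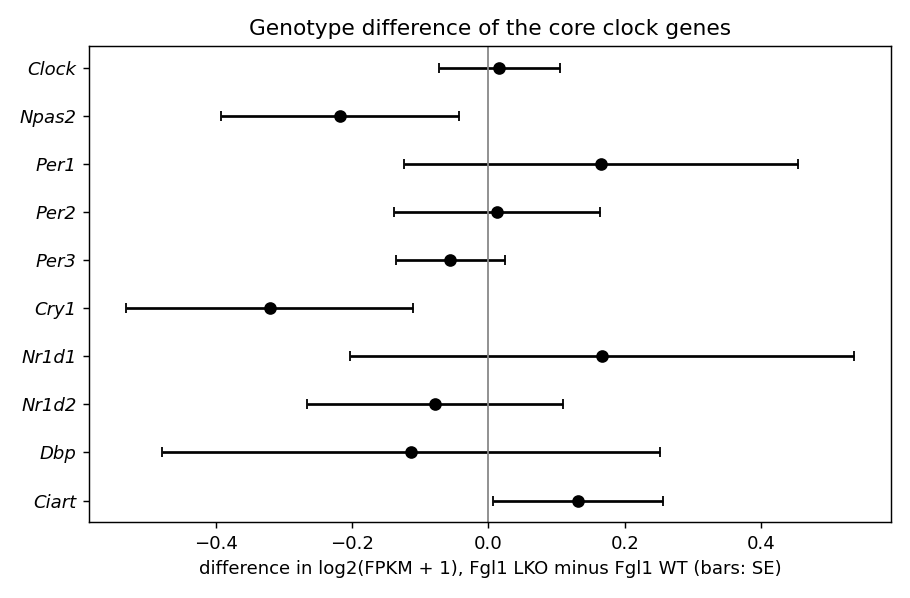
Difference in log2(FPKM + 1) between Fgl1 LKO and Fgl1 WT mice for each core clock gene (points, horizontal axis), with bars of 1 SE from limma and a grey line at 0. The estimates lie between -0.32 for Cry1 and 0.17 for Nr1d1, with the widest bars for Nr1d1 and Dbp.

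Among other clock genes, 15 of the 17 listed passed the filter, and 0 passed the threshold for genotype. At an unadjusted p under 0.05 limma called 1 of 15, against 7.01% of all genes tested. It was Nfil3, a repressor that competes with DBP for D-box elements, which averaged 25.9 ± 5.30 FPKM in Fgl1 WT and 32.5 ± 7.53 FPKM in Fgl1 LKO livers (SD, n = 8 each; adjusted p = 0.696 from limma). The median log2 difference of the list was -0.02. The PAR bZIP relatives Tef and Hlf had means of 11.6 and 5.45 FPKM, Cry2 had 6.67 FPKM, and Rora had 6.44 FPKM. Bhlhe40 and Csnk1d had 24.8 and 24.0 FPKM. Rorb was listed at 0 in all 16 mice.

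Most members varied widely between mice of the same genotype. The SD within genotype on the log2 scale had a median of 0.40 over the members and of 0.17 over all genes tested. Of the members, 6 of 10 (60.0%) lay above the 90th percentile of all genes tested for this SD. The SD of Nr1d1 was 0.83, above 99.2% of genes tested, and that of Dbp was 0.82, above 99.1%. Per1 followed with 0.64, above 98.2%, then Cry1 with 0.46, above 95.9%. Clock and Per3, with SDs of 0.18 and 0.17, lay near the middle of all genes, and Per3 and Ciart are low enough that the added 1 compresses their spread. In the other clock genes 3 of 15 lay above that percentile, with a median SD of 0.23.

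**Figure D3:**
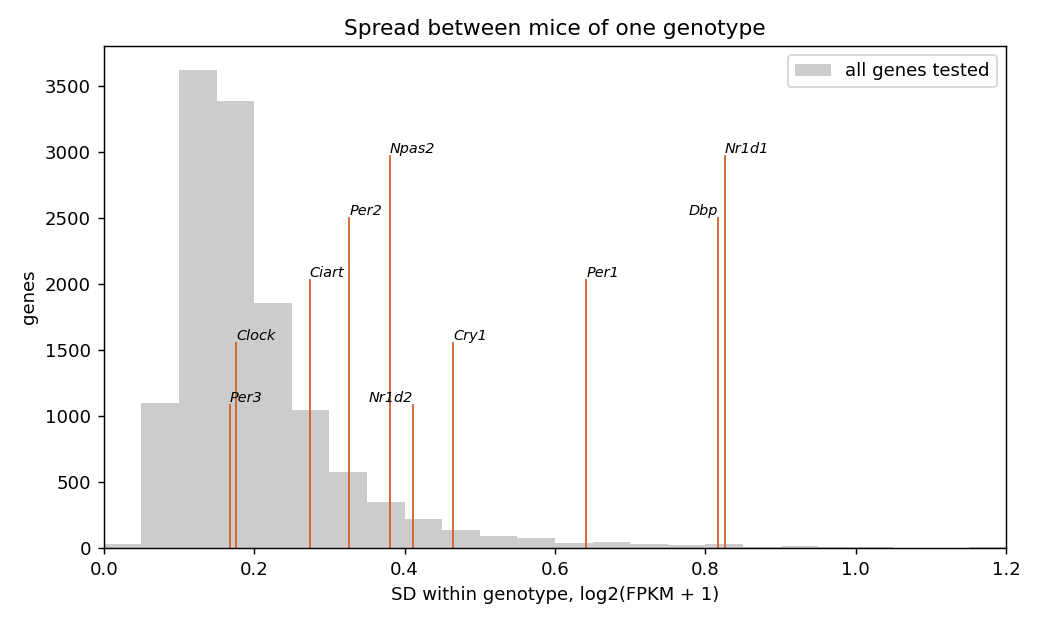
Distribution over all genes tested of the SD between mice of the same genotype on the log2(FPKM + 1) scale (grey bars, number of genes on the vertical axis), shown up to an SD of 1.2. Orange lines, whose heights carry no value, mark the core clock genes, from Per3 at 0.17 to Nr1d1 at 0.83.

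A wide spread was not confined to clock genes. The genes above the same percentile were 10 of 16 for clock output genes (62.5%), 8 of 10 for feeding-regulated genes (80.0%), 6 of 6 for glucocorticoid-responsive genes and 6 of 7 for temperature-responsive genes (85.7%). In these lists 0 genes passed the genotype threshold. At an unadjusted p under 0.05 limma called Por and Cdkn1a of the clock output genes and Fkbp5 of the glucocorticoid-responsive genes, all higher in Fgl1 LKO mice, as were 593 of the 895 genes (7.01% of those tested) called at this level, and 0 of the feeding-regulated and temperature-responsive genes. Por, the reductase that serves cytochrome P450 enzymes, had means of 55.1 and 76.2 FPKM in Fgl1 WT and Fgl1 LKO mice (adjusted p = 0.696 from limma).

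The library numbers fall into 5 runs of consecutive numbers: 36 to 38, 48 to 50, 55 alone, 60 to 64 and 69 to 72. The labels do not say what a run shares, and the first holds 3 Fgl1 WT mice only. The mean FPKM of Dbp was 0.82 ± 0.09 (SD, n = 3) in libraries 36 to 38, 0.44 ± 0.12 (SD, n = 3) in 48 to 50, 0.856 ± 0.565 (SD, n = 5) in 60 to 64 and 3.46 ± 2.78 (SD, n = 4) in 69 to 72, and library 55 had 4.84 FPKM. The mice of the last run and library 55 all lay above those of the first 2 runs. Nr1d1 had means of 16.6, 17.9, 17.3 and 37.9 FPKM in the runs of more than 1 mouse, and 63.5 FPKM in library 55. Per1 ran the other way, with means of 6.31, 5.17, 3.77 and 2.09 FPKM and 4.01 FPKM in library 55, and Cry1 had 6.81, 5.88, 5.61 and 3.35 FPKM and 2.96 FPKM in library 55.

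The runs were compared with a limma F-test with genotype as a covariate, in which library 55 adds no residual. At an adjusted p of 0.05, 0 of 10 members passed, beside 1 of 12770 genes (0.00783%), the desmosomal gene Dsg1c. At an unadjusted p under 0.05, limma called 6 of 10 members, beside 2042 of 12770 genes (16%). Without library 55 the same 6 were called, beside 2011 genes (F = 8.10 for Dbp). Where that library was placed mattered: with it joined to 48 to 50, 1 member was called, beside 2247 genes, and with it joined to 60 to 64, 3 members, beside 1790 genes. The F of Dbp was then 2.86 or 3.77 and that of Nr1d1 2.97 or 2.27, in the same order, and only Per1 was called both ways. The 6 were Dbp (F = 9.20, unadjusted p = 0.000783, adjusted p = 0.123), Per1 (F = 7.37, adjusted p = 0.134), Nr1d1 (F = 6.28, adjusted p = 0.152), Cry1, Per3 and Nr1d2. With a mouse left out, Dbp, Per1 and Nr1d1 were called each time, Cry1 was not without Fgl1 LKO replicate 1, 7 or 8, Per3 not without Fgl1 WT replicate 7 or 8 or Fgl1 LKO replicate 5, and Nr1d2 not without Fgl1 WT replicate 4, 5 or 8 or Fgl1 LKO replicate 1, 4, 5 or 7. Per2 was called in addition without Fgl1 WT replicate 6 or 7, Npas2 without Fgl1 LKO replicate 2 and Ciart without Fgl1 LKO replicate 6. Cry1 was also not called with median-ratio scaling, Per3 with a pseudocount of 0.01 or a filter at a mean of 1 FPKM, where it is not tested, and Nr1d2 without a filter. At the same level limma called 4 of 6 glucocorticoid-responsive genes (66.7%), 6 of 16 clock output genes (37.5%), 3 of 15 other clock genes, 2 of 10 feeding-regulated genes and 1 of 7 temperature-responsive genes. The median F was 3.55 over the members and 1.39 over all genes tested. With the library number as a linear term in place of runs, 4 of 10 members were called at an unadjusted p under 0.05 (Clock, Cry1, Dbp and Per1), beside 2346 genes, and Per1 passed the adjusted threshold (adjusted p = 0.026 from limma; over all settings tried its adjusted p lay between 0.026 and 0.487).

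Of the cell type markers, 0 passed the adjusted threshold for run (adjusted p = 0.109 from limma for Cd5l, the lowest). At an unadjusted p under 0.05, against 16% of all genes, limma called 3 of 3 for Kupffer cells, 3 of 3 for sinusoidal endothelial cells, 2 of 3 for stellate cells, 1 of 3 for cholangiocytes and S100a8 for neutrophils, beside 0 of 4 for hepatocytes, 0 of 2 for erythroid cells and 0 of 1 tested for T and B cells. The summed Kupffer cell markers, led by Cd5l, had 49.0, 81.1, 64.1 and 91.9 FPKM in the runs of more than 1 mouse and 92.9 FPKM in library 55. Over single mice they lay between 42.5 and 113.2 FPKM, and those of sinusoidal endothelial cells, led by Clec4g, between 18.1 and 68.4 FPKM. The latter had 48.9, 51.0, 34.2 and 33.5 FPKM in the same runs and 68.4 FPKM in library 55, and the hepatocyte markers 76006, 61005, 54583 and 55134 FPKM and 67872 FPKM in library 55. For genotype, limma called 1 of these markers at an unadjusted p under 0.05, against 7.01% of all genes. It was Adgre1 of the Kupffer cells (log2 difference 0.38, adjusted p = 0.696 from limma). The estimate was higher in Fgl1 LKO mice for 3 of 3 Kupffer cell markers (median log2 difference 0.25), 3 of 3 cholangiocyte markers (0.22) and 0 of 4 hepatocyte markers (-0.16), beside 7126 of 12770 genes. Libraries 36 to 38, all Fgl1 WT, had the lowest mean Kupffer cell sum and the highest mean hepatocyte sum of the runs. In the other Fgl1 WT mice the Kupffer cell sums lay between 63.0 and 91.3 FPKM, beside 51.85 to 113.2 FPKM in Fgl1 LKO mice. Their hepatocyte sums lay between 50655 and 63416 FPKM, beside 46203 to 67872 FPKM. Marker estimates without that run are not given here. In whole liver, fewer cells of a type and less RNA per cell cannot be told apart, and the part of these cells in the differences between runs was not tested.

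The members did not vary independently. Pearson r and Spearman rho were computed on log2(FPKM + 1) over the 16 mice for all 45 pairs, with two-sided permutation tests and Benjamini-Hochberg adjustment over the pairs. Of these, 16 passed an adjusted p of 0.05 by Pearson r, 8 positive and 8 negative, and 24 by Spearman rho. By Pearson r, each pair among Nr1d1, Nr1d2 and Dbp passed with a positive r, as did each pair among Npas2, Cry1 and Per2, and Per2 passed with a negative r with each of Nr1d1, Nr1d2 and Dbp. Of these pairs, Per2 and Cry1 did not pass without Fgl1 LKO replicate 8, nor Per2 and Dbp without Fgl1 WT replicate 8. Per3 passed with Nr1d1, Dbp and Clock, and its pairs with Npas2, Per2 and Cry1 did not pass by Pearson r. After genotype and run were removed, 7 pairs passed: each pair among Nr1d1, Nr1d2 and Dbp, Per2 with Nr1d1, Nr1d2 and Npas2, and Per1 with Nr1d1. Per2 with Cry1 (adjusted p = 0.0749), Per2 with Dbp (0.0877), Npas2 with Nr1d1 (0.131) and Per3 with Nr1d1 (r = 0.35, adjusted p = 0.339, all from permutations) did not. These permutations shuffled the residuals as if independent, although genotype and run means had been fitted to them. The p-values after removal are therefore too small. Whether any of the 7 pairs would pass with the fitted means allowed for was not tested. Without the 2 mice farthest from the median of the first gene, 16 of 16 kept their sign, and so did 16 of 16 within both genotypes.

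The closest pair was Nr1d1 and Dbp, with r = 0.87 (p = 1e-05, the smallest the permutations can give; adjusted p = 0.00045) and rho = 0.90 (permutation p = 2e-05). Without Fgl1 LKO replicate 3 and Fgl1 WT replicate 5, r was 0.84. Within the genotypes, r was 0.88 in Fgl1 WT mice (exact permutation p = 0.000446) and 0.91 in Fgl1 LKO mice (exact permutation p = 0.000744). No run holds 6 mice, so no r within a run is given. After the means of genotype and run were removed, which sets library 55 to 0, r was 0.70.

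Nr1d2 went with the same genes. Its r with Nr1d1 was 0.80 (permutation p = 0.00014, adjusted p = 0.0021) with rho = 0.84 (permutation p = 7e-05), and r was 0.73 without the 2 farthest mice and 0.77 after genotype and run were removed. Its r with Per2 was -0.78 (permutation p = 0.00026, adjusted p = 0.00293) with rho = -0.79 (permutation p = 0.00035), and r was -0.70 without the 2 farthest mice and -0.74 after genotype and run were removed.

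Among the opposite group, Npas2 and Cry1 had r = 0.74 (permutation p = 0.00104, adjusted p = 0.00936) and rho = 0.74 (permutation p = 0.00176), with r = 0.77 without the 2 farthest mice and 0.58 after genotype and run were removed. Nr1d1 and Cry1 had r = -0.72 (permutation p = 0.00179, adjusted p = 0.0115) and rho = -0.77 (permutation p = 0.00086), with r = -0.92 without the 2 farthest mice and -0.44 after genotype and run were removed. Per3 and Dbp had r = 0.71 (permutation p = 0.00319, adjusted p = 0.016) and rho = 0.70 (permutation p = 0.0037), with r = 0.62 without the 2 farthest mice and 0.25 after genotype and run were removed. In each of these last 3 pairs r was nearer 0 once genotype and run were removed, and none of the 3 then passed (adjusted p = 0.0749, 0.249 and 0.557 from permutations, in the order given). Per1 passed with Nr1d1 (r = -0.64, permutation p = 0.00862, adjusted p = 0.0259; rho = -0.56, permutation p = 0.0253), where r was -0.62 without the 2 farthest mice and -0.75 after genotype and run were removed (adjusted p = 0.0099 from permutations that ignore the fitted means, so too small), and the pair did not pass without Fgl1 WT replicate 3, 7 or 8 or Fgl1 LKO replicate 7. Per1 also passed with Dbp (r = -0.65, permutation p = 0.00612, adjusted p = 0.0224; rho = -0.61, permutation p = 0.015), where r was -0.70 without the 2 farthest mice and -0.53 after genotype and run were removed (adjusted p = 0.128 from permutations), and the pair did not pass without Fgl1 WT replicate 8. By Pearson r, Ciart passed in 0 pairs and Clock in 1, with Per3 (r = -0.59, permutation p = 0.0164, adjusted p = 0.0462; rho = -0.51, permutation p = 0.0467), where r was -0.45 without the 2 farthest mice and -0.58 after genotype and run were removed, no longer past the threshold (adjusted p = 0.0749 from permutations). This pair also failed when any 1 of Fgl1 WT replicates 1, 2, 3, 7 and 8 and Fgl1 LKO replicates 2, 4, 5 and 7 was left out. By Spearman rho it did not pass (adjusted p = 0.0811), while Clock passed with Per1 (rho = 0.60, adjusted p = 0.0353) and Ciart with Dbp (rho = 0.58, adjusted p = 0.0428).

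**Figure D4:**
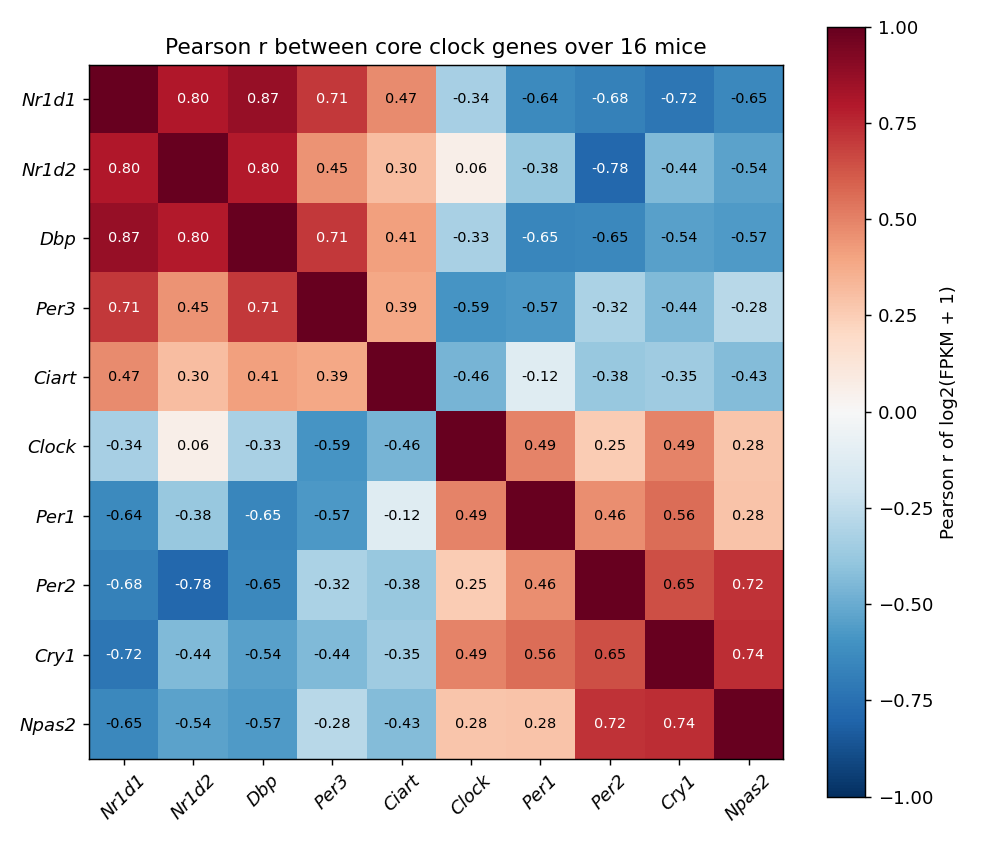
Pearson r of log2(FPKM + 1) over the 16 mice for each pair of core clock genes, from -1 (blue) to 1 (red). The upper left block of Nr1d1, Nr1d2, Dbp and Per3 is positive, from 0.45 to 0.87, and Npas2, Cry1, Per2 and Per1 are negative with each of these genes, though not every pair passed the threshold.

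Genes outside the members were ranked by their r with Dbp and with Npas2 over the 16 mice, among the 10030 genes that averaged 1 FPKM or more, as a description. Highest with Dbp were Zfp97 (r = 0.87), its relative Tef (0.80), Trib3 (0.76), Ppt1 (0.76) and Zfp956 (0.76). Among the lowest were Zbtb21 (-0.87), Skil (-0.87) and Fam50a (-0.85). Highest with Npas2 were Tecpr2 (0.82), Ppard (0.82), Nid2 (0.81), Slc22a23 (0.79) and Sox6 (0.79), and lowest were Gfra1 (-0.81), 9130023H24Rik (-0.70), E430018J23Rik (-0.68), Tmem87a (-0.67) and Epha2 (-0.67).

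Because members varied together across mice, their promoters were searched for the elements that clock factors bind. The set of RefSeq promoters used here holds 12 promoters for 9 of the 10 members and none for Per2, and each of the 12 matched GRCm39 at 1 place. The 250 bases before the start were searched on both strands for the E-box CACGTG, bound by CLOCK and BMAL1, its variant CACGTT, the D-box TTANGTAA, the REV-ERB and ROR element TAGGTCA and the cyclic AMP element TGACGTCA. Of all 32851 promoters in the table, 6.02% hold CACGTG, 3.85% CACGTT, 2.06% TTANGTAA, 2.23% TAGGTCA and 1.55% TGACGTCA. Matches were found for 5 members and are printed 5′ to 3′ on the strand of the gene with the element in capitals. The share of all promoters that hold any of these elements was not computed, so none stands beside this count. Ciart has 3 E-boxes, Cry1 has 1 E-box and 1 variant, Per1 has 1 E-box, in only 1 of its promoters, Nr1d1 has 1 variant and Per3 has 2 D-boxes.
Ciart, chr3:95789641-95789666, minus strand: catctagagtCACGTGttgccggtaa
Ciart, chr3:95789583-95789608, minus strand: cagggggaggCACGTGcagaaccgca
Ciart, chr3:95789569-95789594, minus strand: tgcagaaccgCACGTGtctgggaggg
Cry1, chr10:85020963-85020988, minus strand: tgccggtggtCACGTGgggtgcatgc
Cry1, chr10:85020982-85021007, minus strand, variant on the opposite strand: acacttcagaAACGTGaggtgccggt
Nr1d1, chr11:98666216-98666241, minus strand, variant on the opposite strand: cacagatctcAACGTGccggctgctg
Per1, chr11:68989599-68989624, plus strand: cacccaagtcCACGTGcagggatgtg
Per3, chr4:151129310-151129337, minus strand: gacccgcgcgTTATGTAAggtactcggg
Per3, chr4:151129263-151129290, minus strand: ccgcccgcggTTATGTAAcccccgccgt

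The promoters of Clock, Npas2, Dbp and Nr1d2 hold none of these letters in the stretch searched. A match is a run of letters and binding was not measured.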

How the data were processed

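Liver RNA of 16 mice was sequenced by the authors, who, per their processing notes, aligned reads to mm39 with HISAT and to reference genes with Bowtie2; versions are not given in the sources used here. They deposited FPKM per gene, rounded to 2 decimals, with a comma as decimal mark. All cells were readable, 0 were below 0, and no 2 mice had identical values. The number of reads is not given, and these values were used as deposited.

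log2(FPKM + 1) was taken and genes averaging 0.1 FPKM or more were kept. limma 3.58.1 in R 4.3.3 (lmFit, eBayes with trend) tested genotype and, with genotype as a covariate, run, two-sided, with Benjamini-Hochberg adjustment over 12770 genes. Correlations used 100000 permutations, or all permutations within a genotype. Python 3.11.15, numpy 2.4.6, scipy 1.17.1, pandas 2.3.3 and matplotlib 3.10.9 did the rest. Each test was tested on simulated data. Alternatives were other pseudocounts, filters, scalings, run definitions, a replicate block and leaving out mice.

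Named were all members, Fgl1, Bmal1 (Arntl), Cry2, Nfil3, Tef, Hlf and Rora, genes past a threshold, genes of highest FPKM in a list and genes among the 5 nearest and farthest by r; some genes of these sets are not reported here. Por, Cdkn1a, Fkbp5, Fitm2 and S100a8 were named after their values were seen. The members and lists were chosen with earlier results of these data known. Positions are from GENCODE vM39 on GRCm39; promoters are from RefSeq GRCm38.p6, matched to GRCm39.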

Additional observations from a re-analysis of the deposited data

Results flagged for a closer look

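In each genotype, the distance of the farthest mouse from its nearest neighbour was set against the range of the 8 mice for the 10 members and Fgl1. In Dbp, Fgl1 WT replicate 8, with 7.44 FPKM, stood apart from the other Fgl1 WT mice by 0.709 of their range. In Npas2, Fgl1 WT replicate 4, with 4.33 FPKM, stood apart by 0.549 of the range. These were 2 of 22 groups. A chance rate of about 1 in 20 groups was assumed and not measured, and the distances were taken on FPKM, not on the log2 scale. Without Fgl1 WT replicate 8, the log2 difference of Dbp between genotypes changed from -0.11 to 0.15, neither past the threshold. What sets these mice apart was not tested.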

How the results depend on the processing

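For genotype, 0 of 10 members passed the threshold in any of the 25 alternatives, and over all genes limma called 0 genes in 22 of them. It called 1 gene, Fgl1, with the replicate block, with run as a term and when the run 36 to 38 was dropped. With the replicate block the Fgl1 log2 difference was -3.11 (adjusted p = 0.0197 from limma). The labels do not say whether equal replicate numbers pair the mice. Between mice of equal number, deviations from the genotype means correlated between -0.16 and 0.45, and in 3 of 8 pairs above 0.1. The mean was 0.073, beside -0.0098 for unequal numbers, and 2 of 8 Fgl1 WT mice correlated best with their own number. Mice of equal number from 5 to 8 also share a run of library numbers. These values do not settle whether the numbers pair the mice. The sign of small member differences was reversed in places. With quantile normalization, the log2 difference was -0.017 for Clock and -0.0094 for Per2. With run as a term it was -0.055 for Per2 and -0.094 for Nr1d1, and without libraries 36 to 38 it was -0.0040 for Per2 and -0.017 for Nr1d1. Without a change of sign, Per1 moved from 0.17 to 0.49 and 0.59 in these 2 settings and Dbp from -0.11 to -0.39 and -0.33. At an unadjusted p under 0.05, the members called were Per1 with run as a term (unadjusted p = 0.0431 from limma; 1043 of all genes) and Npas2 with the replicate block (unadjusted p = 0.0483 from limma; 925 of all genes), and 0 in the other settings. With each mouse left out in turn it lay between -0.029 and 0.050 for Clock, -0.066 and 0.079 for Per2, -0.036 and 0.32 for Nr1d1, -0.19 and 0.023 for Nr1d2, and -0.32 and 0.15 for Dbp. Nr1d2 and Dbp were positive only without Fgl1 WT replicate 8 among the mice left out, and Nr1d1 negative only without Fgl1 LKO replicate 3. The cause was not tested.

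For runs, the 1 gene called became 0 with pseudocounts of 0.1 and 0.01 and without the run 36 to 38, 13 with library 55 joined to 48 to 50, 43 without a filter and 115 with the library number as a linear term, where 1 member, Per1, passed (F = 34.5). Without a filter, 11 of the 43 genes were above 0 in library 55 only, which has no residual of its own. Leaving out mice gave 0 members and between 0 and 68 genes: 68 without Fgl1 LKO replicate 4, 5 without Fgl1 WT replicate 8, 3 without Fgl1 WT replicate 4, 2 without Fgl1 WT replicate 7 or Fgl1 LKO replicate 8, 0 without Fgl1 WT replicates 1, 3, 5 or 6 or Fgl1 LKO replicates 1, 2, 5 or 7, and 1 otherwise. Of 45 pairs of members, 16 passed, against 1 within Fgl1 WT, 4 within Fgl1 LKO (8 mice each) and 7 after genotype and run were removed, and between 12 and 18 with a mouse left out. The count of 7 rests on permutations that ignore the fitted means of genotype and run. It is therefore not comparable with the others and may be too high. Read numbers are not given, so no counting error can be stated for the low genes Ciart, Per3 and Dbp.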
